A study of Mus musculus with 19 samples.

Results

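The genes described here were 37 genes of the pancreatic acinar cell, listed by symbol: the digestive enzymes and their cofactors, the proteins of the secretory granule, proteins of the endoplasmic reticulum and transport, transcription regulators and a receptor for a secretagogue. Probes of the Illumina Mouse-6 array were matched to them by gene symbol or current alias, and the probe with the highest mean signal in the duodenum stood for each gene. A probe was found for 32 of the 37 genes, among 17711 gene symbols on the array. Amy2 was matched as Amy2a5 and Spink3 as Spink1. The probes of Prss3, Try5, Try10, Pnlip and Pdia2 were unnamed here, and these genes were not analysed.

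RNA of single male C57BL/6 mice was hybridized to 19 arrays, 9 with duodenum and 10 with liver. The Hfe-/- mice carried a disrupted Hfe gene in all tissues and ate a standard diet with 250 ppm of iron, as did their wild-type controls, with ages in the labels of 10 to 11 weeks for the 2 Hfe-/- and 12 to 13 weeks for the 2 wild-type duodenum arrays. The mice with dietary iron overload had 2% carbonyl iron in their food for 6 weeks, and their controls a standard diet with 200 ppm of iron, and all of them carried an intact Hfe gene and were 16 to 18 weeks old by the labels. They gave 3 iron-supplemented and 2 control-diet duodenum arrays. The liver arrays numbered 3 for Hfe-/-, aged 10 to 12 weeks, 2 for wild type, aged 13 to 14 weeks, 3 for the iron-supplemented diet and 2 for the control diet, both aged 16 to 18 weeks. By these labels all Hfe-/- mice were younger than all wild-type mice of the same tissue, while the methods give an age of about 10 weeks for both genotypes. If the labels hold, age and genotype cannot be told apart.

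Acinar cells make up most of the exocrine pancreas. They store proteases, lipases, amylase and ribonuclease as zymogens or active enzymes in secretory granules and release them into ducts that open into the duodenum, where enteropeptidase activates trypsinogen and trypsin activates the other zymogens. The proteins act in the lumen of the duodenum, but the transcripts belong to the pancreas, which lies along the duodenal wall. Transcription of the enzyme genes depends on the PTF1 complex, in which Ptf1a and Rbpjl bind a CANNTG element (E-box) and a TTTCCC element (TC-box) that lie close together, and Bhlha15 (Mist1) governs the secretory apparatus of the cell.

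The sequence upstream of the start of transcription was available in RefSeq (GRCm38.p6) for 30 of the 37 genes, 27 of which had a probe. In the 250 bases before the start, CANNTG was found on either strand in 25 of 30 genes (66.2% of 32851 promoters in the same table), CACCTG, one form of it, in 18 of 30 (17.2%) and TTTCCC in 8 of 30 (21.9%). Both elements at a distance of 2 to 18 bases, in any order and on any strand, were found in 5 of 30 genes (3.13%), and with CACCTG as the E-box in 3 of 30 (0.584%). TATAAA was found in 10 of 30 (12.4%), TTTCCCA, which holds TTTCCC, in 6 of 30 (6.82%), CAAGGTCA in 2 of 30 (1.33%) and the HNF1 consensus in 1 of 30 (0.134%). These 9 patterns were all that were searched, and a match describes the letters and not a bound site. The 5 genes with both elements close together are shown, with Cela3b, which had the largest difference between Hfe-/- and wild type and holds no TTTCCC in this window. Each line gives the 250 bases before the start, 5′ to 3′ on the strand of the gene, with the E-box and TC-box letters of either strand in capitals (TTTCCC on the other strand reads GGGAAA).
Cela1 (chr15:100687921-100688170, minus strand): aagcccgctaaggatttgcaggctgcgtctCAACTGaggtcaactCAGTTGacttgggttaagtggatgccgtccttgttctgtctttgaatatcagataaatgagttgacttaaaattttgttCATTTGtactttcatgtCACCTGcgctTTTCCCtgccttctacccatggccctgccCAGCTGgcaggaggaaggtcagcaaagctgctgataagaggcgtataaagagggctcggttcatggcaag
Ctrb1 (chr8:111691011-111691260, minus strand): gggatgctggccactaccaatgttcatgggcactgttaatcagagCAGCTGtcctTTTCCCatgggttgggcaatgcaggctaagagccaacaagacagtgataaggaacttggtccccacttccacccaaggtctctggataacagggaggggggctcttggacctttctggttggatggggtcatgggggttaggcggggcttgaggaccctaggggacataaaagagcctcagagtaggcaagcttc
Prss1 (chr6:41458680-41458929, plus strand): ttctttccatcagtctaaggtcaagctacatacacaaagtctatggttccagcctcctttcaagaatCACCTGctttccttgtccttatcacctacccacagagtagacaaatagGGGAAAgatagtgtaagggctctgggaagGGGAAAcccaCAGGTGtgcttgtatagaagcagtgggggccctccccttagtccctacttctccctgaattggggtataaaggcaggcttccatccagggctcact
Cpa1 (chr6:30638968-30639217, plus strand): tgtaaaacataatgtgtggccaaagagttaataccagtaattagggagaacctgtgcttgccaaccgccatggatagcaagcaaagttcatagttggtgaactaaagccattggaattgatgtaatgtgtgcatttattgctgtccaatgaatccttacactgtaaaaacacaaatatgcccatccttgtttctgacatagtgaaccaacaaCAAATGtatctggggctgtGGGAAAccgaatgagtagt
Cel (chr2:28563404-28563653, minus strand): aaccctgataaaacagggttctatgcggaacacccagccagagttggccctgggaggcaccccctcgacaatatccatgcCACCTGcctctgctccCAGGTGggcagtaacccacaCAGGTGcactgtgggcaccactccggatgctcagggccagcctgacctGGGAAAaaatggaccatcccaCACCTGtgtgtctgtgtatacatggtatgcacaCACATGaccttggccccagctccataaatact
Cela3b (chr4:137430521-137430770, minus strand): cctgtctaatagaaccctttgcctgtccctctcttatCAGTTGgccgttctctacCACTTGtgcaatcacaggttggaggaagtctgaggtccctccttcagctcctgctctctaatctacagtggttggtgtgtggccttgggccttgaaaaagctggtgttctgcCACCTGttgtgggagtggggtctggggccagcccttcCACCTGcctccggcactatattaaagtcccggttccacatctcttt

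All signals are bead intensities, linear and not normalized when given as whole numbers, and quantile-normalized over the arrays of a tissue when given as log2 values. A probe was called detected at a detection p under 0.05, which sets it against the negative control beads of its array. Between 13936 and 16965 probes were detected on the 9 duodenum arrays. Of the 32 genes, 31 were detected on 8 of the 9 arrays. On the remaining array, wild-type replicate 2, 25 were detected, and Ctrc, Prss2, 2210010C04Rik, Cuzd1, Serpini2 and Rbpjl were not above background. The 32nd gene, Cckar, the receptor through which cholecystokinin stimulates acinar secretion, was detected on none of the 9 arrays, at intensities of 71.6 to 122.

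Wild-type replicate 2 was the lowest of the 9 arrays for 29 of the 31 detected genes, while it was the lowest for 8.41% of all 18474 probes detected in the duodenum. In log2 units its signal lay below the median of the other 8 arrays for 30 of 31 genes, by more than 1 for 25 of them, with a median difference of -3.66 and a range of -7.00 (Try4) to 1.03 (Nupr1), against a median of -0.01 over all detected probes. Hfe-/- replicate 2 was the highest array, or tied with the highest, for 28 of the 31 genes and for 11.9% of all detected probes. It exceeded the median of the 7 arrays other than itself and wild-type replicate 2 by more than 1 for 22 genes, with a median difference of 1.71. Over those 7 arrays the range of a gene was 0.20 to 1.95 log2 units, with a median of 0.64 for the 31 genes and 0.38 for all detected probes. These arrays stand apart in the Hfe comparison, so the fold changes and counts of that comparison are also given without wild-type replicate 2. The summed normalized intensity of the 32 genes was 239900 and 416700 on the Hfe-/- arrays, 259200 and 19250 on the wild-type arrays, 234700 to 243800 on the iron-supplemented arrays and 247100 and 276000 on the control-diet arrays.

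**Figure D1:**
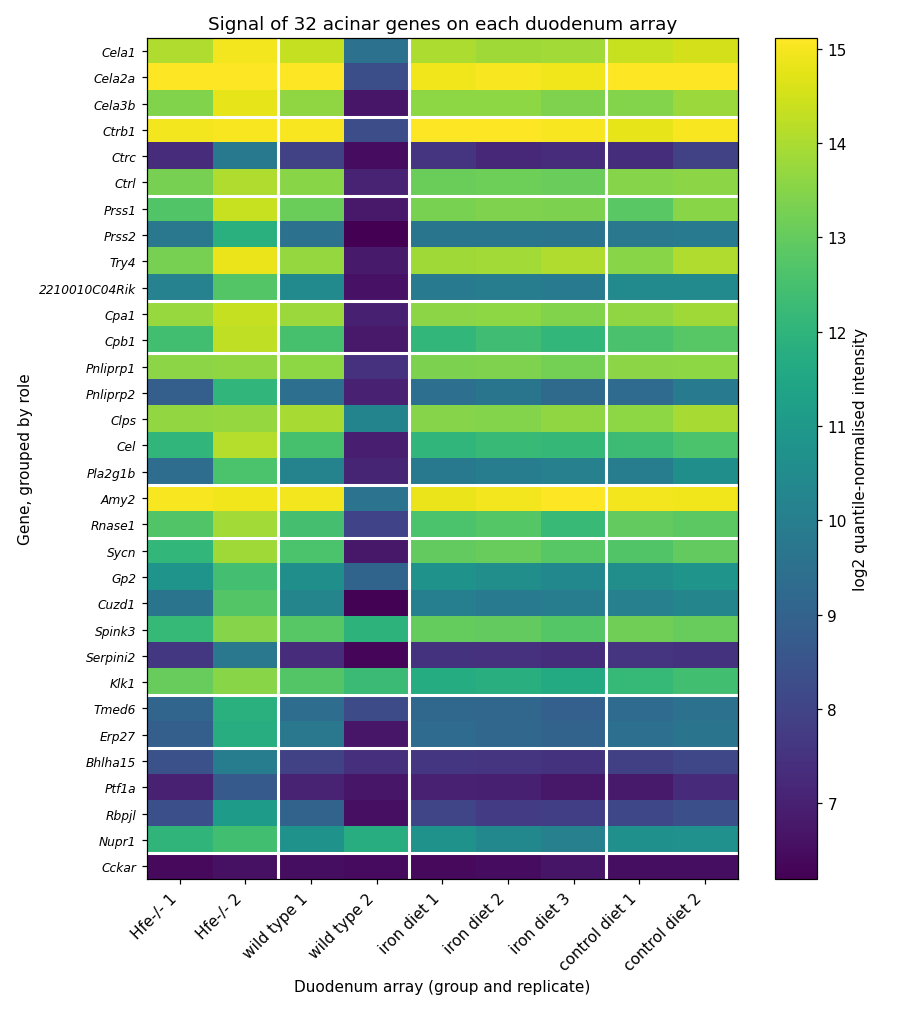
Log2 quantile-normalized intensity of the 32 acinar genes (rows, grouped by role, white lines between roles) on the 9 duodenum arrays (columns, by group and replicate). The column of wild-type replicate 2 is dark for most genes, and that of Hfe-/- replicate 2 is brighter than the other columns for many genes of intermediate signal.

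Among the elastases, endopeptidases that cut after small residues, Cela2a read 35226 and 43432 in Hfe-/-, 36807 and 384 in wild type, 32507, 32666 and 26950 on the iron-supplemented diet and 33958 and 36197 on the control diet. Cela1 read 18474 and 39016 in Hfe-/-, 19114 and 877 in wild type, 17783, 16268 and 12105 on the iron-supplemented diet and 20664 and 19181 on the control diet. Wild-type replicate 1 therefore lay between the 2 Hfe-/- arrays in both genes, and in Cela1 it was close to Hfe-/- replicate 1 alone. Wild-type replicate 2 was far below all 8 other arrays. On each of the 8 arrays other than wild-type replicate 2 the brightest probe of the whole array was Cela2a, Ctrb1 or Amy2. Quantile normalization gives the brightest probe the same log2 value on every array, so that differences among these 8 arrays could hardly be measured for the 3 genes.

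Chymotrypsins cut after aromatic residues. Ctrb1, chymotrypsinogen B, read 30190 and 42838 in Hfe-/-, 36497 and 373 in wild type, 36112, 35222 and 29318 on the iron-supplemented diet and 32141 and 33924 on the control diet. Ctrl, a chymotrypsin-like protease, read 12062 and 20274 in Hfe-/-, 11043 and 155 in wild type, 9823, 10063 and 7122 on the iron-supplemented diet and 11646 and 10461 on the control diet. The third gene, Ctrc, which in humans cleaves and controls trypsinogen, was dim throughout, with log2 values of 7.23 or more on the arrays other than wild-type replicate 2, where it was not above background.

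Probes of 4 trypsinogen genes were present, and since the trypsinogens are close copies of each other a probe may also bind transcripts of its neighbors. Try4 read 12046 and 31406 in Hfe-/-, 12434 and 128 in wild type, 16043, 16442 and 13619 on the iron-supplemented diet and 12182 and 14582 on the control diet. Prss1 read 7929 and 23854 in Hfe-/-, 7856 and 124 in wild type, 11307, 11525 and 8833 on the iron-supplemented diet and 7642 and 10388 on the control diet. In both genes Hfe-/- replicate 1 and wild-type replicate 1 were nearly equal before normalization. In log2 values Hfe-/- replicate 1 was the lower, with 13.27 against 13.70 in Try4 and 12.68 against 13.13 in Prss1. The spread within each genotype was larger than the distance between these arrays. The carboxypeptidases Cpa1 and Cpb1, which remove residues from the C terminus, were again lowest on wild-type replicate 2 and highest on Hfe-/- replicate 2. Cpa1 read 15027 and 23611 in Hfe-/-, 13722 and 142 in wild type, 13146, 12964 and 9447 on the iron-supplemented diet and 13508 and 13239 on the control diet. Cpb1 read 6481 and 21892 in Hfe-/-, 5012 and 124 in wild type, 5315, 6185 and 3779 on the iron-supplemented diet and 6410 and 6092 on the control diet.

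Of the genes of lipid digestion, Clps, the colipase that anchors pancreatic lipase to fat droplets, read 13775 and 15869 in Hfe-/-, 15169 and 1356 in wild type, 12479, 11930 and 10388 on the iron-supplemented diet and 12808 and 13685 on the control diet. Pnliprp1, a lipase-related protein, read 13311 and 15381 in Hfe-/-, 11788 and 208 in wild type, 11627, 11494 and 8206 on the iron-supplemented diet and 12474 and 10650 on the control diet. Hfe-/- replicate 2 was only slightly above the other arrays in these bright probes. In the dimmer ones it was far above them: Cel, the bile salt-dependent lipase, read 21249 on that array and 3800 to 5778 on the 7 others apart from wild-type replicate 2. The lipase-related Pnliprp2 read 3672 on it and 486 to 906 on the 7 others, and the phospholipase Pla2g1b read 5485 on it and 837 to 1317 on the 7 others. Among dim genes of other roles, Prss2 (3273 against 623 to 1180) and Cuzd1, a protein of the granule membrane (6394 against 775 to 1164), had the same excess. Across the 31 genes the excess of Hfe-/- replicate 2 over the 7 arrays was smaller the brighter the gene (Pearson r = -0.86, Spearman rho = -0.86), and the deficit of wild-type replicate 2 was larger the brighter the gene (r = -0.76, rho = -0.76). These are descriptions across genes that share the same arrays and a limited range of intensity, and genes are not replicates. On wild-type replicate 2 many genes lay near background, so a dim gene could not show a large deficit. The sign of that correlation was thereby set in advance. The brightest genes lay at the top of the normalized range, so they could hardly show an excess on Hfe-/- replicate 2. That excess was 0 for Cela2a and Ctrb1 and -0.05 for Amy2. Both differences were also taken from medians over arrays that gave the brightness. Nothing is drawn from either correlation.

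Amylase and ribonuclease digest starch and RNA. Amy2 read 30914 and 36131 in Hfe-/-, 34651 and 912 in wild type, 32155, 32532 and 30562 on the iron-supplemented diet and 33315 and 33287 on the control diet. Rnase1 read 8047 and 17704 in Hfe-/-, 4876 and 305 in wild type, 7057, 7642 and 4168 on the iron-supplemented diet and 8306 and 6336 on the control diet. Both Hfe-/- arrays lay above both wild-type arrays in Rnase1 but not in Amy2, and Hfe-/- replicate 1 was within the range of the diet arrays in both genes.

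The granule proteins and inhibitors did not all follow wild-type replicate 2. Sycn (syncollin), a protein of the granule membrane, did, with 5255 and 17250 in Hfe-/-, 5252 and 119 in wild type, 8981, 9178 and 6146 on the iron-supplemented diet and 6734 and 6734 on the control diet. Spink3, the trypsin inhibitor of the pancreas that is also made in other organs, read 5447 and 13380 in Hfe-/-, 6189 and 4095 in wild type, 9185, 8942 and 6003 on the iron-supplemented diet and 9356 and 7420 on the control diet. Its signal on wild-type replicate 2 was thus 1.04 log2 units below the median of the other 8 arrays, while that of Sycn was 6.12 below. Klk1, tissue kallikrein, which releases kinins and is made in several glands, read 10357 and 13701 in Hfe-/-, 5998 and 5145 in wild type, 4086, 4183 and 2687 on the iron-supplemented diet and 4964 and 4650 on the control diet. In Klk1, which was singled out after its values were seen, both Hfe-/- arrays lay above both wild-type arrays, as for 14.3% of all probes. Wild-type replicate 2 was not low in Klk1 (-0.01 against the median of the other 8).

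Among proteins of the endoplasmic reticulum and transport, Tmed6, of the p24 family of cargo receptors, read 749.5 and 3220 in Hfe-/-, 594 and 360.2 in wild type, 624, 620 and 379 on the iron-supplemented diet and 648 and 611 on the control diet. Erp27, a noncatalytic member of the protein disulfide isomerase family, read 624 and 3041 in Hfe-/-, 745 and 116 in wild type, 705, 624 and 401 on the iron-supplemented diet and 722 and 635 on the control diet. In each of these a single Hfe-/- array, replicate 2, was high, and replicate 1 was within or near the range of the diet arrays.

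The transcription regulators differed among themselves. Rbpjl, the acinar subunit of PTF1, read 428 and 2031 in Hfe-/-, 463 and 102 in wild type, 278, 226 and 179 on the iron-supplemented diet and 279 and 269 on the control diet. Nupr1, a chromatin protein induced by cell stress and first known from pancreatitis, read 5156 and 4651 in Hfe-/-, 1465 and 3644 in wild type, 1958, 1484 and 851 on the iron-supplemented diet and 1741 and 1384 on the control diet. Nupr1 was the only detected gene of the 31 that was higher on wild-type replicate 2 than the median of the other 8 arrays. Bhlha15 read 437 and 887 in Hfe-/-, 234 and 200.5 in wild type, 202, 187 and 141 on the iron-supplemented diet and 231 and 222 on the control diet. Ptf1a, the subunit of PTF1 that also specifies the pancreas in the embryo, was near background, at 128 and 399.6 in Hfe-/-, 144 and 115 in wild type and 94.1 to 132 on the diet arrays.

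**Figure D2:**
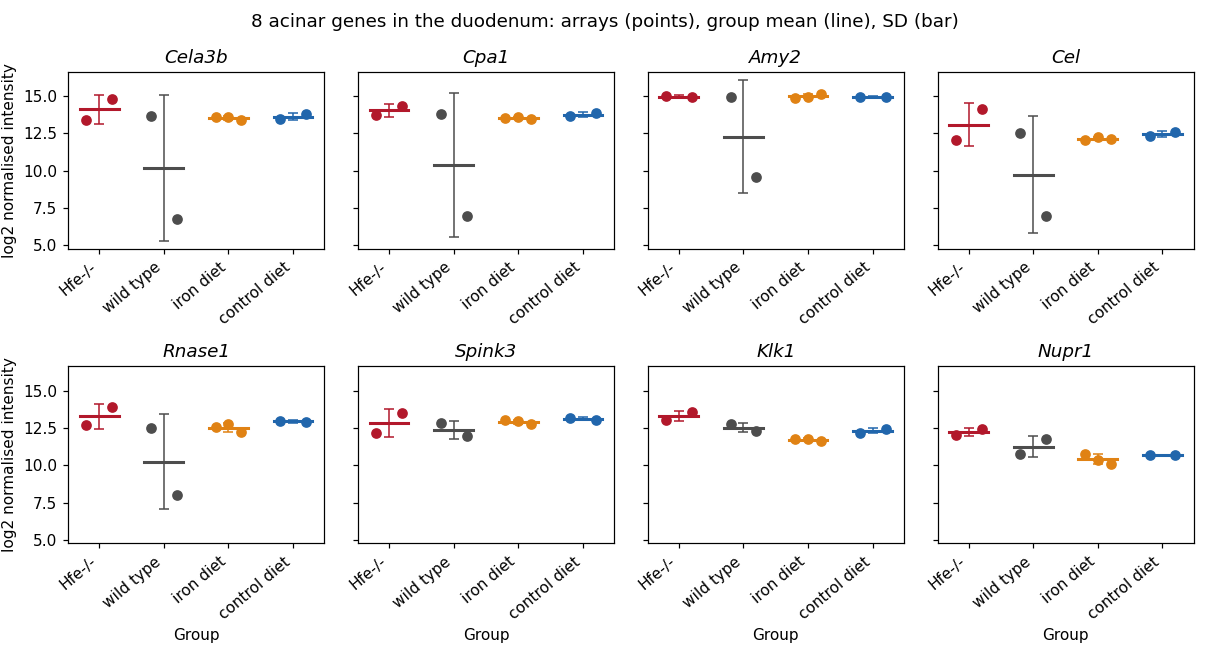
Log2 normalized intensity of 8 genes in the duodenum by group, with each array as a point, the group mean as a line and the SD as a bar (n = 2 each for Hfe-/-, wild type and control diet, and n = 3 for the iron-supplemented diet). In Cela3b, Cpa1, Amy2, Cel and Rnase1 one wild-type array lies far below the rest, in Spink3 it lies only slightly below, and in Klk1 and Nupr1 both Hfe-/- arrays lie at the top.

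The first comparison asks how loss of Hfe affected the duodenum. In the fit to the 2 Hfe-/- and 2 wild-type arrays all 31 detected genes had a higher mean in Hfe-/-, with a median log2 fold change of 2.68 against -0.02 over the 16599 probes tested, of which 43.4% were positive. None passed the test: limma with Benjamini-Hochberg adjustment called 0 of 31, with adjusted p between 0.65 and 0.949, and 1 of 16599 probes (0.00602%), a probe without a gene symbol. At an unadjusted p under 0.05 there were 5 of 31 genes, Gp2, Serpini2, Klk1, Bhlha15 and Nupr1, and 6.87% of all probes. The largest differences also had large errors. Cela3b had a log2 fold change of 3.91 ± 2.11 (SE), Try4 of 3.79 ± 2.11 and Cpb1 of 3.67 ± 1.79. Both Hfe-/- arrays lay above both wild-type arrays for 7 of 31 genes (Prss2, Rnase1, Gp2, Serpini2, Klk1, Bhlha15 and Nupr1), and the same held for 14.3% of all probes. The rule of the study used no test and kept probes that were among the 0.6% most variable by SD and changed at least 1.4-fold. By that rule, applied to the probe that stands for each gene, 29 of the 32 genes were higher in Hfe-/-, all but Spink3, Klk1 and Cckar, among 177 higher probes (0.38% of 46632) and 60 lower ones. A second, dimmer probe of Klk1 also passed the rule, at 2.37-fold. The rule ranks probes by SD, which holds the distance between the 2 wild-type arrays as well. The study also measured Cela3b (as Ela3) and Cpb1 by quantitative RT-PCR, in more mice per group than on the arrays. It reported both as higher in Hfe-/-.

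Without wild-type replicate 2 the median of the 31 genes was 0.56, with 27 positive and 3 negative values and 1 at 0, 0 of 31 genes passed the test and 2 of 31 had an unadjusted p under 0.05, beside 11 of 15350 probes called (0.0717%). Cela3b then had a log2 fold change of 0.46 ± 0.48 (SE), Try4 of 0.37 ± 0.54, Cpa1 of 0.27 ± 0.26 and Cela1 of 0.20 ± 0.34. Negative values were found for Clps (-0.28), Ctrb1 (-0.02) and, close to 0, Amy2. Cela2a had 0 difference, being the brightest probe on all 3 arrays. Both Hfe-/- arrays lay above wild-type replicate 1 for 7 of 31 genes, against 31.3% of all probes, and the study's rule then kept 17 of the 32 genes as higher in Hfe-/- (0.33% of all probes). Without wild-type replicate 1 instead, so that Hfe-/- was set against replicate 2 alone, 16 of 31 genes passed, all higher in Hfe-/-, with 35 of 15937 probes called (0.22%) and a median of 4.80 over the 31 genes. One of the 16, Prss2, was not above background on that array. In both of these fits the lone wild-type array was assumed to vary as the Hfe-/- arrays did. Without Hfe-/- replicate 2 the median was 1.59 and without Hfe-/- replicate 1 it was 3.39, against -0.02 over all probes in both. Set side by side, Hfe-/- replicate 1 was below wild-type replicate 1 in 22 of the 31 genes and above it in 8, with a median difference of -0.24, and Hfe-/- replicate 2 was above it in 27, with a median of 1.58.

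**Figure D3:**
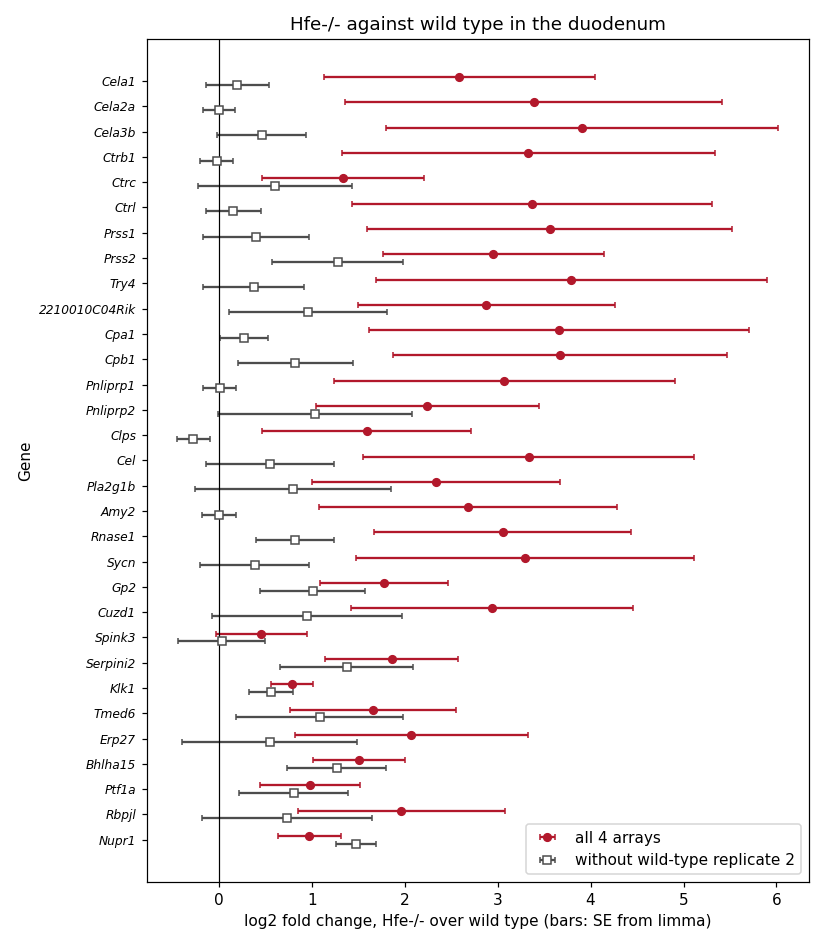
Log2 fold change of 31 genes in the duodenum, Hfe-/- over wild type, from all 4 arrays (filled circles) and without wild-type replicate 2 (open squares), with the standard error from limma as bars. With all 4 arrays the values lie between 0.45 and 3.91, and without that array between -0.28 and 1.47.

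Klk1, Nupr1 and Bhlha15 had small errors and an unadjusted p under 0.05. Spink3 had as small an error with all 4 arrays, with a log2 fold change of 0.45 ± 0.49 (SE, adjusted p = 0.949 by limma). Klk1 had a log2 fold change of 0.78 ± 0.23 (SE, adjusted p = 0.65 by limma) with all 4 arrays and 0.56 ± 0.24 (adjusted p = 0.573) without wild-type replicate 2. Nupr1 had 0.97 ± 0.34 (adjusted p = 0.685 by limma) and, without that array, 1.47 ± 0.22. That fit left wild-type replicate 1 alone, the lower of the 2 in Nupr1 (log2 10.75 against 11.75). The stomach gene Gkn1 was lower there too (6.73 against 14.04), with a log2 fold change of 7.08 in that fit. Gkn3 was not (14.15 against 14.03). Whether stomach tissue had a part in Nupr1 was not tested. Bhlha15 had 1.51 ± 0.50 (adjusted p = 0.669 by limma) with all 4 arrays and 1.27 ± 0.53 without wild-type replicate 2. None of Klk1, Nupr1 and Bhlha15 passed the test. In all 3, which were picked by these same values, both Hfe-/- arrays were above both wild-type arrays, as for 14.3% of all probes. They were above the diet arrays as well, whose mice were older by the labels. The share of all probes for which this holds was not counted, so nothing is drawn from it. The 2 Hfe-/- arrays were also set against wild-type replicate 1 and both control-diet arrays. This comparison was added after the data were seen, and age and standard diet differ in it as well. In it 0 of 31 genes passed among 3 called of 16972 probes (0.0177%). At an unadjusted p under 0.05 there were 3 of 31 genes and 2587 of 16972 probes. The median was 0.70 and Nupr1 had 1.51 ± 0.14 (adjusted p = 0.061 by limma). The other 2 genes with an unadjusted p under 0.05 in the fit to all 4 arrays were highest on Hfe-/- replicate 2. Gp2, the major protein of the granule membrane, read 2306 and 4897 in Hfe-/-, 1334 and 629 in wild type, and Serpini2, a serpin of the acinar cell, read 235 and 787 in Hfe-/-, 166 and 87.7 in wild type, the last not above background.

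Second probes were listed for 8 of the genes. That of Cela3b had log2 values of 12.89 and 14.67 in Hfe-/-, 12.96 and 6.53 in wild type, and that of Clps 12.62 and 14.21 in Hfe-/-, 13.00 and 8.90 in wild type. With the brighter probe of Clps wild-type replicate 1 was above both Hfe-/- arrays, and with the second probe it was between them. The second probe of Prss1 had 7.84 and 11.25 in Hfe-/-, 8.37 and 6.37 in wild type. That of Cpb1 had 6.90 and 8.29 in Hfe-/-, 6.96 and 6.77 in wild type and 6.64 to 6.89 on the diet arrays, and a second probe of Bhlha15 had 7.66 and 8.93 in Hfe-/-, 7.32 and 6.83 in wild type. The second probe of Klk1 had 10.72 and 12.39 in Hfe-/-, 10.41 and 10.21 in wild type and 8.62 to 10.01 on the diet arrays. The low value of wild-type replicate 2 was found with both probes in Cela3b, Clps and Prss1. In Cpb1 the dim second probe did not show it, and in Klk1 this array lay within or above the range of the diet arrays with both probes. The second probes of Cela1 and Erp27 and another probe of Bhlha15 were detected on 1, 0 and 1 of the 9 arrays.

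Dietary iron overload was compared with the control diet on 3 and 2 arrays. The genes stayed close together: 26 of the 31 had a lower and 5 a higher mean on the iron-supplemented diet, with a median log2 fold change of -0.25 against 0.01 over 16373 probes, of which 53.2% were positive. The range was -0.58 (Klk1) to 0.18 (Prss1), and no gene differed by as much as 1 log2 unit. Limma called 0 of 31 genes, with a lowest adjusted p of 0.0675, and 72 of 16373 probes (0.44%). At an unadjusted p under 0.05 there were 12 of 31 genes and 9.88% of all probes. All 3 iron-supplemented arrays lay below both control-diet arrays in 17 of 31 genes and 0 lay above, while 12.1% of all probes lay below in this way. 2210010C04Rik, of the trypsinogen family, had -0.55 ± 0.08 (SE, adjusted p = 0.0675 by limma), with 1021, 1144 and 711 on the iron-supplemented diet and 1462 and 1152 on the control diet. Klk1 had -0.58 ± 0.10 (adjusted p = 0.0989), Cela1 -0.53 ± 0.10 (adjusted p = 0.111) and Ctrl -0.41 ± 0.08 (adjusted p = 0.138).

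**Figure D4:**
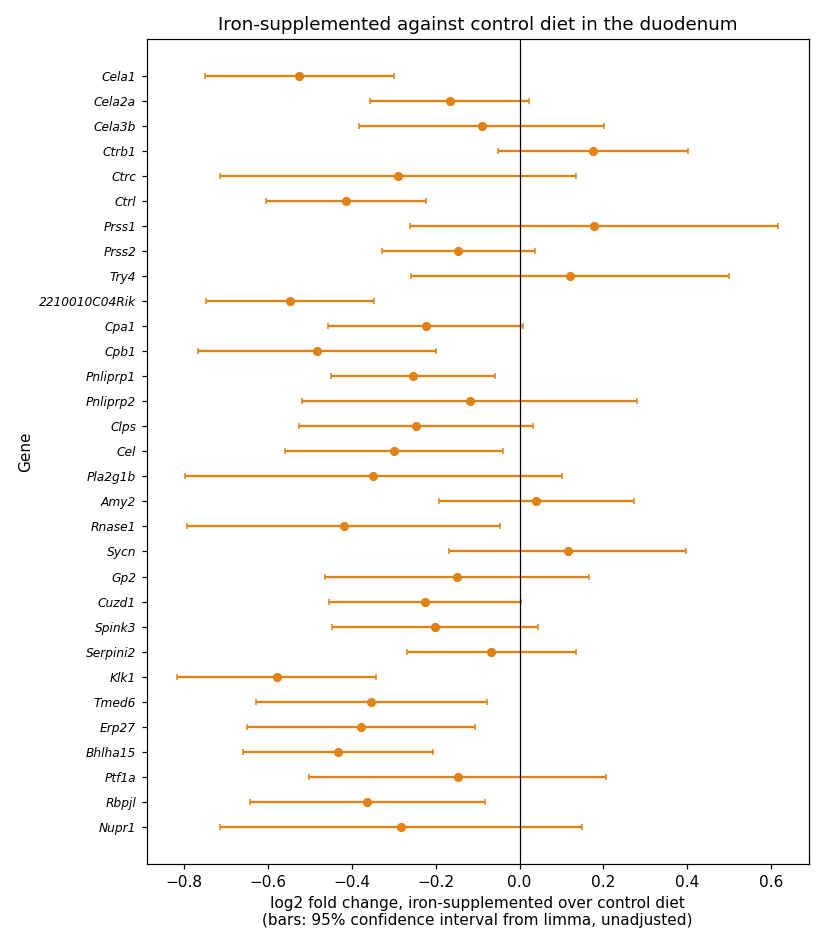
Log2 fold change of 31 genes in the duodenum, iron-supplemented over control diet, with the unadjusted 95% confidence interval from limma as bars. The values lie between -0.58 and 0.18, most of them below 0.

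The effect of Hfe loss and that of the diet were set against each other in a fit to all 9 duodenum arrays. The difference between them was positive for all 31 genes, with a median of 3.10, and for 44.2% of all probes, with a median of -0.03. The test passed 0 of 31 genes and 1 of 18474 probes (0.00541%). At an unadjusted p under 0.05 there were 8 of 31 genes and 1692 of 18474 probes. Without wild-type replicate 2 the median was 0.93, with 28 positive and 3 negative values, and 0 of 31 passed, with 4 at an unadjusted p under 0.05 and 8 of 18026 probes called (0.0444%). With all 9 arrays the smallest adjusted p was that of Klk1, with a difference of 1.36 ± 0.26 (SE, adjusted p = 0.172 by limma). The log2 fold change of Klk1 was 0.78 in the Hfe comparison and -0.58 in the diet comparison. Wild-type arrays were also compared with control-diet arrays, both with an intact Hfe gene and a standard diet. The groups differed in age by the labels (12 to 13 against 16 to 18 weeks) and in dietary iron (250 against 200 ppm). Their summed stomach signal differed too, at 26520 and 94260 in wild type and 940 and 1024 on the control diet. The part of these differences was not tested. The median over the 31 genes was -1.93, with 29 lower and 2 higher in wild type (Klk1 and Nupr1). The test passed 0 of 31 genes and 1806 of 16123 probes (11.2%). At an unadjusted p under 0.05 there were 1 of 31 genes and 3960 of 16123 probes. Rnase1 had the lowest adjusted p, 0.179, with a log2 fold change of -2.70 ± 1.12 (SE) by limma. Without wild-type replicate 2 the median was 0, with 15 lower, 15 higher and 1 at 0, and 0 of 31 passed, with 0 at an unadjusted p under 0.05, while limma called 675 of 15002 probes (4.5%).

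Other genes of the tissue were measured beside these. Of 12 further genes of the exocrine pancreas 8 were detected, and limma called 0 in either direction in the Hfe or the diet comparison, with 0 at an unadjusted p under 0.05 in either. Their median log2 fold change in the Hfe comparison was 0.31 with all 4 arrays and 0.23 without wild-type replicate 2. Aqp12, a water channel of acinar cells, had log2 values of 7.11 and 9.56 in Hfe-/-, 7.29 and 6.58 in wild type, and Fkbp11, a prolyl isomerase of secretory cells, 9.83 and 11.02 in Hfe-/-, 9.60 and 9.76 in wild type. Reg1 and Zg16, which the intestine also makes, were bright on all 9 arrays, with 13.83 for Zg16 and 13.78 for Reg1 on wild-type replicate 2. Of 8 genes that activate or control pancreatic secretion 4 were detected and limma called 0 in both comparisons, with 2 at an unadjusted p under 0.05 in the Hfe comparison and 0 in the diet comparison, and with medians in the Hfe comparison of -0.14 with all 4 arrays and -0.23 without wild-type replicate 2. Enteropeptidase (Tmprss15) was not above background on any duodenum array, and Cck, the hormone that acts through Cckar, had 7.19 and 7.54 in Hfe-/-, 8.23 and 7.72 in wild type and 8.21 to 8.37 on the diet arrays. Of 13 further tissue kallikreins 7 were detected on at least 2 arrays. Klk1b8 was detected on 2 alone and was highest in Hfe-/- (6.98 and 7.66). A gene detected on few arrays enters by those where it is high, so the counts support nothing. All 7 were highest on Hfe-/- replicate 2, as were 11.9% of all detected probes. Limma called 0 of them in both comparisons. At an unadjusted p under 0.05 there were 4 in the Hfe comparison (6.87% of all probes) and 3 in the diet comparison (9.88% of all probes). Their median log2 fold change in the Hfe comparison was 1.05 with all 4 arrays and 0.96 without wild-type replicate 2. Klk1b27 had 11.33 and 12.69 in Hfe-/-, 10.75 and 10.89 in wild type. Kallikrein genes are close copies, and their probes and that of Klk1 may bind each other's transcripts.

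Markers of other cells also differed between single arrays. In a whole piece of tissue fewer cells of a type and less RNA per cell cannot be told apart. Of 11 pancreatic islet genes 6 were detected, 4 of which were lowest on wild-type replicate 2, and Ins2, insulin, had log2 values of 7.83 and 9.53 in Hfe-/-, 9.19 and 6.48 in wild type and 8.48 to 9.15 on the diet arrays. The summed normalized intensity of the 9 islet genes with a probe was 1586 and 2488 in Hfe-/-, 2272 and 1572 in wild type, 2104 to 2237 on the iron-supplemented diet and 2565 and 2375 on the control diet. Pcsk1 and Slc30a8 were not above background on any array. The 4 measured genes of the pancreatic duct list were detected on all 9 arrays, and none was lowest on wild-type replicate 2. Their sum was 9278 and 5565 in Hfe-/-, 5162 and 8154 in wild type and 2481 to 3368 on the diet arrays. Whether these transcripts came from pancreatic ducts was not tested. Of 7 stomach genes all were detected on at least 2 arrays, and their sum was 94200 and 57650 in Hfe-/-, 26520 and 94260 in wild type and 940 to 1449 on the diet arrays. Gkn1, a gastrokine of the stomach surface, had 14.21 and 13.39 in Hfe-/-, 6.73 and 14.04 in wild type and 6.46 to 6.57 on the diet arrays, so that wild-type replicate 2 was high and replicate 1 near the diet arrays. Other stomach genes were high on wild-type replicate 1 too, with 14.15 for Gkn3 against 8.47 to 9.53 on the diet arrays and 12.75 for Pgc, pepsinogen C, against 7.43 or less. Their part in the acinar results was not tested. The sum of the 7 enterocyte genes was 14400 and 23770 in Hfe-/-, 24120 and 22290 in wild type, 32040 to 37160 on the iron-supplemented diet and 39290 and 33730 on the control diet. Villin (Vil1) was detected on all 9 arrays, and Fabp1 and Fabp2 were not above background on any.

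**Figure D5:**
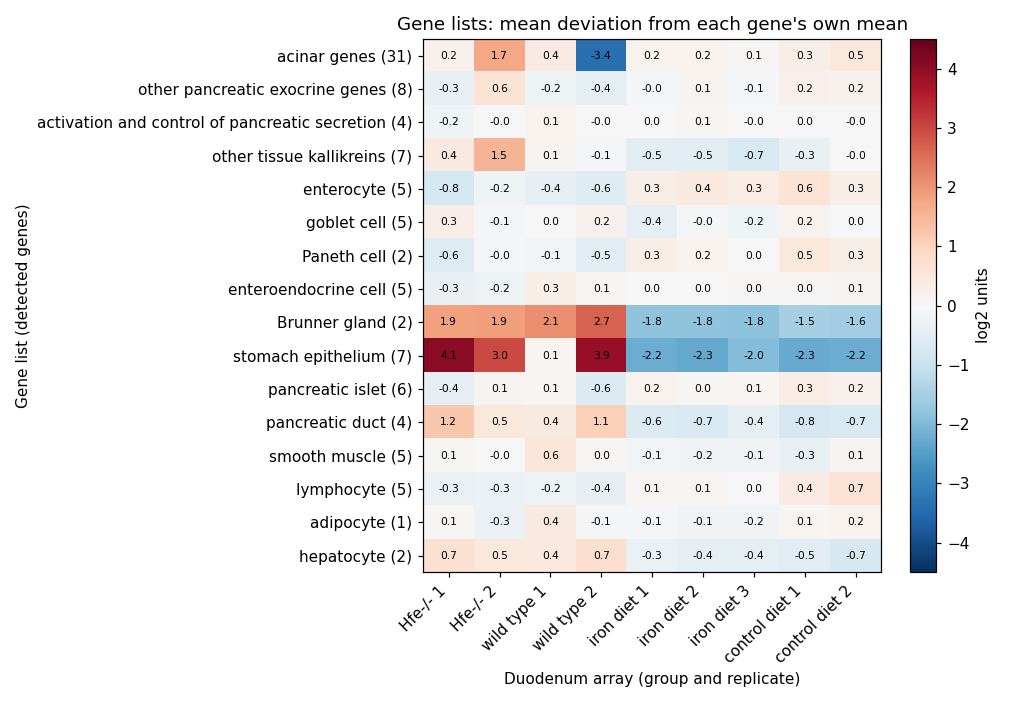
Mean deviation, in log2 units, of the detected genes of each list (rows, number of genes in brackets) from each gene's own mean over the 9 duodenum arrays (columns). The acinar genes are at -3.40 on wild-type replicate 2 and 1.74 on Hfe-/- replicate 2, while the stomach genes are at 4.06 and 2.99 in Hfe-/-, 0.08 and 3.90 in wild type and between -2.29 and -1.97 on the diet arrays.

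In the liver, which makes few of these proteins, 4 to 8 of the 32 genes were detected per array. Amy2 was detected on all 10 arrays, at 3032, 3349 and 3125 in Hfe-/-, 3632 and 3048 in wild type, 3487, 2818 and 3292 on the iron-supplemented diet and 2952 and 2970.1 on the control diet. The liver is known to express Amy1, and the amylase genes are close copies, so that this probe may bind both. Cela2a was detected on all 10 arrays as well, at 116 to 187. Cela1 was detected on all 10, at 494, 675 and 530 in Hfe-/- and 876 and 450 in wild type, where the groups overlapped. Limma called 0 of the 7 genes tested between Hfe-/- and wild-type liver and 4 of 14160 probes (0.0282%). At an unadjusted p under 0.05 there were 0 of 7 genes and 1266 of 14160 probes. On the iron-supplemented diet Cela1 read 406, 332 and 392, against 530 and 522 on the control diet, and the groups did not overlap. It fell by 0.65 ± 0.07 on the log2 scale (SE, adjusted p = 0.00687 by limma), the only call among 5 genes tested, with 324 of 14919 probes called (2.17%). The call was lost with median scaling, with the spread estimated over all liver arrays (adjusted p = 0.231) and without iron-supplemented replicate 2 or control-diet replicate 1. Nupr1 read 125, 133 and 140 on the iron-supplemented diet and 106 and 87.1 on the control diet, with a log2 fold change of 0.26 ± 0.09 (SE, adjusted p = 0.224 by limma).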

How the data were processed

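Total RNA was amplified, labeled and hybridized to Illumina Mouse-6 arrays, 1 mouse per array. The methods describe liver and duodenum RNA from 1 set of mice, so arrays of the 2 tissues may share animals. Equal replicate numbers were not read as pairs. The authors deposited linear bead intensity without background subtraction or normalization, with a detection p-value per probe from the scanner software. They also deposited log2 values, quantile-normalized within each comparison in Chipster; in the duodenum these did not follow the probe identifiers (correlation with the intensity 0.00596 to 0.0111), so they were used as an alternative in the liver alone. The authors left 1 divergent Hfe-/- duodenum sample out before deposit. Of 46643 entries, 11 duplicated identifiers were averaged to 46632 probes, of which 29976 had 1 gene symbol, 10 several and 16646 none. Intensities were log2-transformed and quantile-normalized per tissue. Each comparison used limma 3.58.1 (R 4.3.3) on the probes that 2 or more of its arrays detected (detection p under 0.05), with Benjamini-Hochberg adjustment over all probes tested and a threshold of 0.05. The fits were tested on simulated data. The genes and lists were chosen with earlier results of these data known, and support nothing by being chosen. Values of every array are given for the 2 genes of highest mean signal in each role and for each gene past the threshold; other genes given in this way were chosen after their values were seen. Alternatives were other scalings, filters, probes and fits, and each array left out. The number of arrays limits the precision.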

Additional observations from a re-analysis of the deposited data

How the results depend on the processing

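In the duodenum, 0 of 31 acinar genes passed between Hfe-/- and wild type under normalization over the comparison's arrays, median scaling, normexp correction with an offset of 50, no or a stricter detection filter, a fit over all duodenum arrays and the mean of a gene's probes. Leaving out each array in turn gave 0 to 16 genes, the 16 without wild-type replicate 1, and the study's rule gave 29. With the replicate number as a block 0 genes passed. With the numbers crossed 8 genes passed, beside 57 probes called over the whole array. That fit was added after the data were seen, because same-numbered arrays deviated oppositely (correlation -0.46). Its pairing was thus taken from the same values that were tested, so the 8 genes and 57 probes support nothing. The uncrossed block changed no other call: 0 genes in the duodenal diet comparison, 0 in Hfe-/- liver, 1 in the liver diet comparison, and 0 in both fits over all duodenum arrays. The median of the genes kept its sign, at 0.56 to 4.80 (Hfe-/- against wild type) and -0.37 to -0.15 (diet) over the arrays left out. For single genes the sign of the Hfe difference turned in Ctrb1 (-0.024 to 6.68 over the arrays left out), Clps (-0.28 to 3.46) and Amy2 (-0.001 to 5.36) without wild-type replicate 2, in Spink3 (-0.22 to 1.13) without Hfe-/- replicate 2, and in Clps (-0.15) and Spink3 (-0.18) against wild-type replicate 1 and both control-diet arrays. In the diet comparison 0 genes passed except 1, 2210010C04Rik, without the detection filter (adjusted p = 0.0267). In the liver diet comparison the call of Cela1 fell to 0 genes with median scaling and with the fit over all liver arrays, and to 0 to 1 over the arrays left out. The difference between the Hfe and diet effects had 0 to 15 genes past the threshold, and wild type against control diet 0 to 19, over the arrays left out, the highest counts without wild-type replicate 1. The cause was not tested. At a detection p under 0.01, 21 genes were detected on wild-type replicate 2 and 30 or 31 on the others. Signal at the top of the range limits what Cela2a, Ctrb1 and Amy2 can show.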
